A study of Caenorhabditis elegans with 2 samples.

Results

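The 31 genes described here encode the machinery that docks, primes, fuses and recycles synaptic vesicles in Caenorhabditis elegans, and they were taken from a fixed list of names out of 19973 nuclear protein-coding genes. That list was chosen with earlier results of these data known. All 31 names matched 1 annotated gene each. Binding was measured by chromatin immunoprecipitation and sequencing (ChIP-seq) of CND-1, the worm's NeuroD protein, which binds DNA through a basic helix-loop-helix domain, in whole embryos of mixed stage and pooled sex that were obtained by egg bleaching and carry a labelled age of 3 hours. Both biological replicates were of strain OP349, genotype unc-119(ed3) III; wgIs349, whose transgene encodes CND-1 fused at the C-terminus to GFP-FLAG, and precipitation used an antibody to GFP. The replicates form 1 group, so no comparison between conditions was possible, and the level and cells of expression of the tagged protein are not given in the labels.

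NeuroD proteins pair with an E protein and recognise E-boxes, the sites CANNTG, and in animals they act in the specification and differentiation of neurons. The genes studied here act at the other end of that path. A synapse needs a SNARE complex that pulls vesicle and plasma membrane together, factors that prime and clamp it, an active zone scaffold that holds vesicles beside calcium channels, and adaptors that retrieve vesicle membrane afterwards. In the worm many of these proteins are made throughout the nervous system, and a good part of their genes are named unc for the uncoordinated movement of mutants.

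The region searched for each gene, called the interval here, ran from 1500 bp upstream of its outermost transcript start to the gene end. A summit is the position of highest signal in a called region. Of 4 deposited lists, the thresholded one held 1940 nuclear peaks, which were the 1940 strongest nuclear regions of the pooled list, and the pooled list and each replicate list held close to 30000 regions that include background by their label. A summit in those larger lists is therefore not a call of binding. A site was called matched when its pooled-list summit had a summit within 100 bp in each replicate list. Signal is the peak caller's own value on a scale that is not stated, so strength is given mainly as a rank within a list, where 1 is the strongest nuclear region.

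Of the 31 genes, 6 had a thresholded summit, with 1 summit each, namely unc-41, unc-104, syd-2, nsf-1, unc-64 and dyn-1. The share was 19.4% (95% exact interval 7.45 to 37.5), beside 8.71% of all protein-coding genes. Synaptic genes are long, with a median interval of 9.51 kb against 3.53 kb for all genes. Per length they held 1.5 thresholded summits per 100 kb (exact Poisson interval 0.55 to 3.26), beside 2.13 per 100 kb over the intervals of all genes. The count of genes thus lay above the background and the count per length below it, and both intervals, which cover counting error only, contain the value of all genes. The intervals also differed in make-up. Upstream sequence was 11.6% of the synaptic intervals and 31.7% of those of all genes. Of all pairs of a protein-coding gene and a thresholded summit, 65.1% lay upstream. The part of this difference in the value per length was not tested.

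The sequences around 5 of these 6 summits are shown, with E-boxes and an element of tRNA genes marked where present. Which sites hold an E-box depends on the window. Of the 6 summits 3 had one within 100 bp windows, 2 within 60 bp and 4 within 200 bp. Each is the 100 bp centred on the summit, read from the plus strand of the RefSeq WBcel235 assembly, which is ce11. Capitals mark an E-box in unc-64 and dyn-1, and in unc-104 the internal promoter element of tRNA genes known as the B box, searched as GGTTCGANNCC on both strands. The windows lie at chrV:9970279-9970378 (unc-41), chrII:7001601-7001700 (unc-104), chrX:10555657-10555756 (syd-2), chrIII:13275931-13276030 (unc-64) and chrX:15568108-15568207 (dyn-1).
unc-41: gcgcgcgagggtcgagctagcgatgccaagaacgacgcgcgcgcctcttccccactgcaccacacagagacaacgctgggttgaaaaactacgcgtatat
unc-104: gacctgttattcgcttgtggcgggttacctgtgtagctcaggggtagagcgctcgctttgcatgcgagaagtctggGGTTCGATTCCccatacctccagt
syd-2: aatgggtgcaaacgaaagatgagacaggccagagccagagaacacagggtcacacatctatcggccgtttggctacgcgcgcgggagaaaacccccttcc
unc-64: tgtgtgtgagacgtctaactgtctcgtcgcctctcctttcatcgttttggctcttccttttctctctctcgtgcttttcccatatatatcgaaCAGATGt
dyn-1: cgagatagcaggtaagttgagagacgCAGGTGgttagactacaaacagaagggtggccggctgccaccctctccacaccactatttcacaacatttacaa

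The 2 strongest of the 6 peaks lay inside introns, and the region of each overlapped a small RNA feature. The peak in unc-41, which encodes a stonin-like adaptor of vesicle endocytosis, ranked 118 in the pooled list (signal 395.42), 144 in replicate 1 (signal 177.66) and 109 in replicate 2 (signal 217.15). Its summit lay 1546 bp downstream of the nearest start of unc-41 and 58 bp from the snoRNA gene C27H6.5, which is 68 bp long. The peak in unc-104, the kinesin that carries synaptic vesicle precursors along axons, ranked 166 in the pooled list (signal 340.91), 168 in replicate 1 (signal 169.6) and 194 in replicate 2 (signal 170.24). Its summit lay 5719 bp downstream of the nearest start and inside C52E12.t1, a 72 bp element that RefSeq annotates as a tRNA pseudogene.

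Neither window held an E-box, and the unc-104 window was the 1 window with a B box among the 111 pooled-list summits at synaptic genes. That motif occurred in 3.97% of all thresholded windows and 0.594% of all pooled-list windows. Across the genome 14.9% of thresholded summits were within 100 bp of a gene for a tRNA, snoRNA or snRNA, and 3 were that close to a tRNA pseudogene. Without such peaks, 4 synaptic genes (12.9%) kept a thresholded summit, beside 7.55% of all genes. The part of the small RNA features in these peaks was not tested, and no control library was analysed here.

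The remaining 4 peaks lay upstream of their genes. The peak of syd-2, which encodes the liprin-alpha scaffold that organises the active zone, lay 468 bp upstream of the start and ranked 337 in the pooled list (signal 252.24). Replicates 1 and 2 placed it at 257 (signal 139.14) and 457 (signal 116.53). Its summit fell inside F59F5.9, an annotated non-coding RNA gene of 199 bp, and its window held no E-box.

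Both thresholded peaks at fusion genes held an E-box. The syntaxin gene unc-64 carried a peak at 1277 bp upstream, with rank 763 in the pooled list (signal 169.9), 885 in replicate 1 (signal 78.37) and 748 in replicate 2 (signal 91.71). Its window contained CAGATG, an E-box found in 17.4% of all thresholded windows and 3.71% of their left flanks, starting at base 94 of 100. The gene nsf-1, for the ATPase that takes spent SNARE complexes apart, had its peak 452 bp upstream (signal 180.94). That peak ranked 685 in the pooled list, 724 in replicate 1 (signal 85.98) and 802 in replicate 2 (signal 88.7), and its window held CAAATG.

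The weakest of the 6 belonged to dyn-1, which encodes dynamin, the GTPase that pinches off endocytic vesicles. It lay 732 bp upstream of the start with rank 1267 in the pooled list (signal 130.59), and its window held CACCTG, printed above as its reverse complement. Replicate 2 ranked it 1100 (signal 75.57) and replicate 1 ranked it 2067 (signal 51.9), outside the 1940 strongest nuclear regions of that replicate. For all 6 summits the nearest transcript start of any protein-coding gene was the gene's own. All 6 were matched sites.

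**Figure D1:**
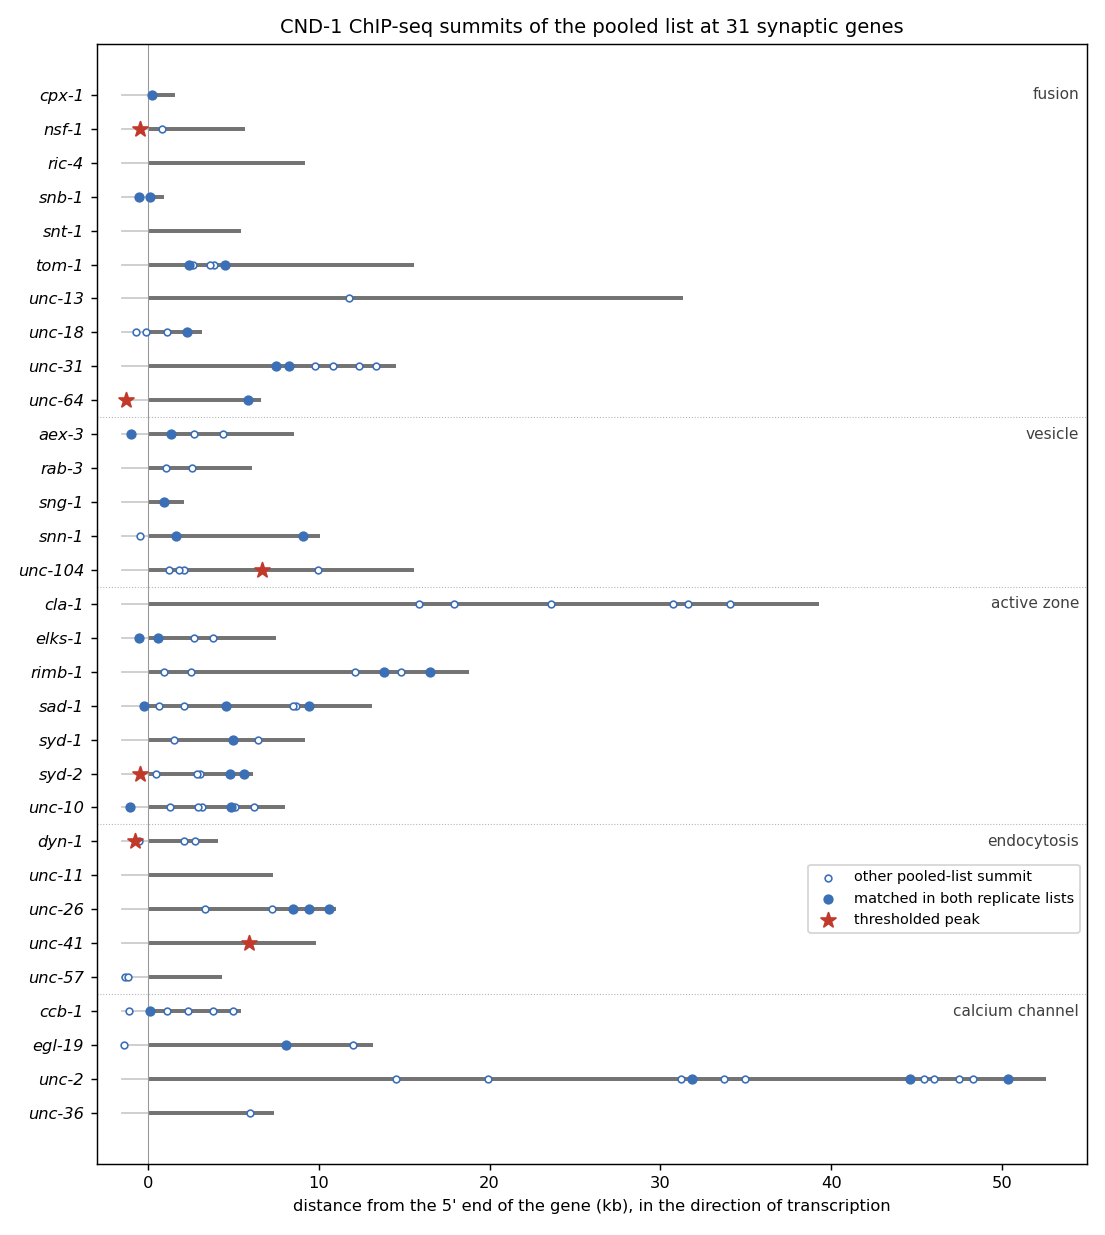
Summits of the pooled list (points) along the 31 synaptic genes, in kb from the 5′ end of each gene in the direction of transcription, with the gene as a dark bar and the 1500 bp upstream as a light line. Red stars mark the 6 thresholded peaks, of which 4 lie upstream and 2 in introns, filled points the other matched sites and open points the remaining summits; ric-4, snt-1 and unc-11 carry none.

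Longer intervals more often hold a summit, so the counts were also read within classes of length. Among intervals of 5 to 10 kb, 4 of 12 synaptic genes had a thresholded summit, beside 13.0% of all genes of that class. Among intervals of 10 to 20 kb it was 2 of 11, beside 21.1%. None of the 4 synaptic genes under 5 kb (cpx-1, snb-1, unc-18 and sng-1) had one, beside 6.33% of all genes, and none of the 4 of 20 kb or more (unc-13, cla-1, rimb-1 and unc-2), beside 26.9%. With at most 12 genes in a class, the exact intervals of the synaptic shares contained the share of all genes in each class.

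**Figure D2:**
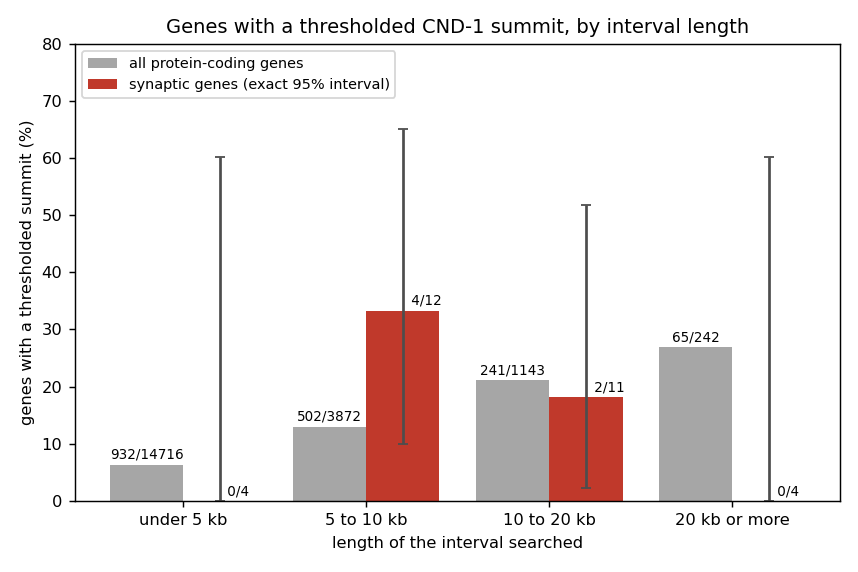
Share of genes (%) with a thresholded summit by length of the interval, for all protein-coding genes (grey) and the synaptic genes (red, exact 95% intervals), with the counts above the bars. The grey share rises from 6.33% under 5 kb to 26.9% at 20 kb or more, and the red bars come to 4 of 12 and 2 of 11 in the middle classes and 0 in the outer ones.

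When summits were counted only near transcript starts, from 1500 bp upstream to 500 bp downstream, 4 synaptic genes remained (12.9%), beside 7.40% of all genes. They were syd-2, nsf-1, unc-64 and dyn-1, the genes with an upstream peak.

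In the pooled list, 28 of the 31 genes (90.3%) had at least 1 summit, beside 62.1% of all genes, and 23 (74.2%) had a matched site, beside 34.7%. Replicate 1 alone placed a summit at 30 genes, beside 64.4% of all genes, and replicate 2 at 28, beside 63.2%. These shares also rise with length. The 111 pooled-list summits at synaptic genes amounted to 27.7 per 100 kb (exact Poisson interval 22.8 to 33.4), beside 32.6 per 100 kb over all genes. The replicate lists gave 31.5 and 26.5 per 100 kb at synaptic genes, beside 32.5 and 32.6.

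Site by site, the synaptic summits resembled those of the genome in strength and in recovery. Their median pooled rank was 15894 of 29976, beside 15107 for all summits in intervals of protein-coding genes. Of the 111 sites 40 were matched (36%), beside 35.4% of all nuclear summits, and 11 had no summit within 100 bp in either replicate list. Across the 40 matched sites the ranks in the 2 replicates had a Spearman correlation of 0.592, beside 0.563 across the 10604 matched sites of the genome. These correlations run across sites, which share the same libraries, and are given as a description. Ranks lay less than 2-fold apart at 25 of the 40 sites (62.5%), beside 59.7% of all matched sites. The 6 thresholded peaks were among those 25. They belong to the 1940 strongest nuclear regions of the list called on the reads of both replicates. Their like ranks are therefore not independent evidence of reproducibility.

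**Figure D3:**
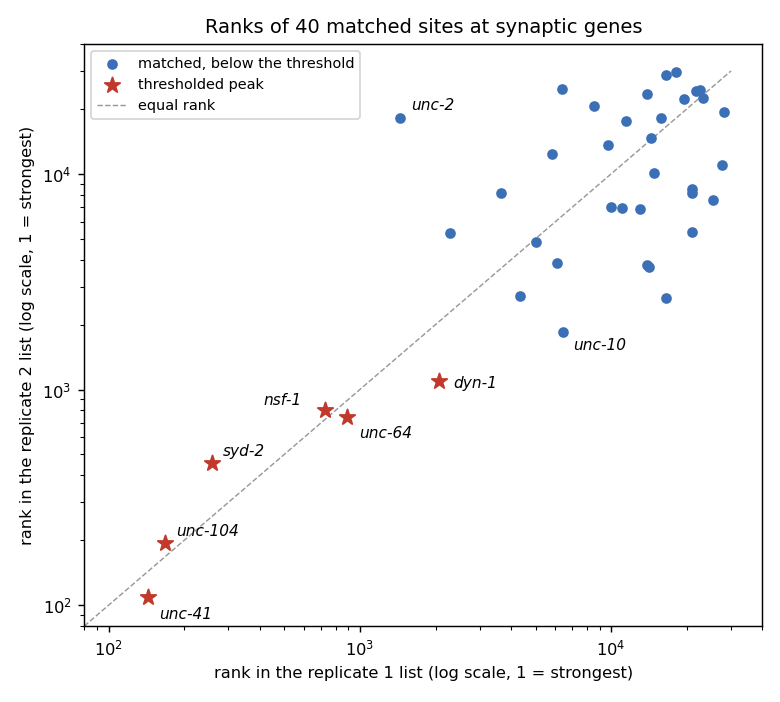
Rank in replicate 1 (x axis) against rank in replicate 2 (y axis), both on log scales with 1 the strongest, for the 40 matched sites at synaptic genes. The 6 thresholded peaks (stars), which are among the strongest regions called on the reads of both replicates, lie along the line of equal rank. Sites such as that of unc-2, at 1449 and 18239, lie far from it.

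Of the next 8 genes, ordered by their best matched site below the threshold, 4 encode active zone proteins. The first site was 1029 bp upstream of unc-10, which encodes the RIM scaffold that links vesicles to calcium channels, at pooled rank 2304 (signal 94.83). It ranked 1855 in replicate 2 (signal 57.98) but 6409 in replicate 1 (signal 34.31). The next lay 494 bp upstream of elks-1, for an active zone coiled-coil protein, at pooled rank 2310 (signal 94.73), and here replicate 1 gave the better rank, 2288 against 5299. Neither window held an E-box.

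Other active zone genes followed. At sad-1, the kinase that governs presynaptic assembly, a site 225 bp upstream had pooled rank 3461, with 16469 in replicate 1 and 2658 in replicate 2. At rimb-1, for a RIM-binding protein, the best matched site was exonic, 15795 bp downstream of the nearest own start and nearer to the start of clp-4, with pooled rank 4271. The gene syd-1, which acts above syd-2 in synapse assembly, had its best matched site at pooled rank 10017, in an intron beside the non-coding RNA genes F35D2.10 and F35D2.12. The long scaffold gene cla-1 (Clarinet) had 6 pooled-list summits over 40.8 kb, none of them matched, and the nearest to its 5′ end lay 15854 bp into the gene.

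Among calcium channel genes no peak reached the thresholded list. The gene unc-2, for the pore subunit of the presynaptic channel, had the longest interval of all (54.1 kb) and the most pooled-list summits (12), of which 3 were matched. Its strongest, at pooled rank 3240, lay in an intron 220 bp upstream of an internal transcript start. Replicate 1 ranked that site 1449 (signal 61.18) and replicate 2 ranked it 18239 (signal 23.76), so the replicates differed widely there. A second site of unc-2, near its 3′ end, had pooled rank 3280 with ranks 6109 and 3854. At ccb-1, the beta subunit gene, 6 summits in 6.93 kb made the highest density of the 31 genes, 8.66 per 10 kb, but 1 of them was matched, at pooled rank 13775. The muscle and neuronal channel gene egl-19 had 1 matched site of 3 (rank 8485), and unc-36, for the alpha-2-delta subunit, had 1 pooled-list summit, at rank 29138, with no match. At unc-36 replicate 1 had 1 summit (rank 9162) and replicate 2 had 2 (best rank 11816).

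Fusion genes other than unc-64 and nsf-1 carried weak sites or none. At tom-1, for tomosyn, an inhibitor of SNARE assembly, the best site ranked 2874 in the pooled list, 4340 in replicate 1 and 2726 in replicate 2, but it lay 348 bp from the start of another gene, ostd-1, and 4416 bp from the nearest start of tom-1. The synaptobrevin gene snb-1 had both of its 2 sites matched, at 515 bp upstream (rank 4801) and 97 bp downstream of the start (rank 9761). The complexin gene cpx-1 had 1 site, 267 bp downstream of its start, at rank 5449. At unc-18, for the syntaxin-binding protein that acts with unc-13 in priming, 1 of 4 summits was matched (rank 10788).

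The gene unc-31, for the CAPS priming factor of dense core vesicles, had 6 summits, and 3 of them lay within 100 bp of snRNA genes in its introns. These 3 ranked 8675, 11162 and 21381 in the pooled list, so they were far weaker than the snoRNA site in unc-41. Over all members 4 of 111 pooled-list sites lay that close to a tRNA, snoRNA or snRNA gene, beside 1.81% of all nuclear sites.

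Several genes central to release had no reproducible site. The priming gene unc-13 had 1 pooled-list summit in 32.8 kb, at rank 28031, and it was not matched. Each replicate list placed 3 summits at unc-13, the best at rank 20403 in replicate 1 and 11285 in replicate 2. The syntaxin partner gene ric-4 had none in the pooled list and 1 in replicate 1, at position -1202 bp from its start and rank 6803. The clathrin adaptor gene unc-11 had 3 weak summits in replicate 1 alone, the best at rank 22993. The synaptotagmin gene snt-1, for the calcium sensor of fusion, was the 1 gene without a summit in any of the 4 lists, and the nearest pooled-list summit lay 829 bp outside its interval. Depth is unknown from peak lists, and in whole embryos a site bound in few cells and a site bound weakly cannot be told apart, so a gene without a summit may still be bound.

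Among the other genes for vesicle proteins, aex-3 had the strongest matched site. At aex-3, the exchange factor for the rab-3 product, a site 989 bp upstream ranked 3683 in the pooled list, 3631 in replicate 1 and 8150 in replicate 2. The synapsin gene snn-1 had 2 matched sites (best rank 9315) and the synaptogyrin gene sng-1 had 1 (rank 19609). The GTPase gene rab-3 had 2 summits, at ranks 11266 and 19344, each found in a single replicate.

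Among the other endocytic genes, unc-26, for synaptojanin, had 3 matched sites with pooled ranks from 8908 to 11368, all of them toward the 3′ end and nearer to the start of JC8.16 than to a start of unc-26. The endophilin gene unc-57 had 2 summits upstream of its start, each found in 1 replicate. The gene with the nearest start was another one for 26 of the 111 synaptic sites.

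Upstream sequence made up 11.6% of the synaptic intervals, beside 31.7% of the intervals of all genes. At synaptic genes it held 4 of the 6 thresholded summits, or 8.6 per 100 kb, against 0 in exons and 0.899 per 100 kb in introns. Over all genes the thresholded densities were 4.38 upstream, 0.466 in exons and 1.63 in introns. Of the 111 pooled-list summits, which include background, 17 lay upstream (15.3%). Exons held 48 (43.2%) and introns 46 (41.4%). By length this was 36.6 per 100 kb upstream, 36.5 in exons and 20.7 in introns, beside 33.6, 38.6 and 26.6 over all genes. Replicate 1 gave 47.3, 36.5 and 25.2 per 100 kb in the same order, and replicate 2 gave 40.9, 29.7 and 21.6. Of the 40 matched sites 11 (27.5%) lay within 500 bp of a start of their own gene, beside 34.9% of all pairs of a gene and a matched site.

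The 8 genes on X held 45 of the 111 pooled-list sites and 16 of the 40 matched ones. This was 41 pooled-list summits per 100 kb on X and 22.7 on the autosomes, whereas all genes had 32.2 on X and 32.7 on the autosomes. For matched sites the synaptic values were 14.6 per 100 kb on X and 8.26 on the autosomes, beside 12.1 and 11.5 for all genes. The difference between X and autosomes among synaptic genes was not tested, since each rests on few genes. Of the thresholded peaks, 2 of 6 were on X (syd-2 and dyn-1).

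An E-box was about as frequent at pooled-list summits of synaptic genes as beside them. It was present in the 100 bp window of 33 of the 111 summits (29.7%, 95% exact interval 21.4 to 39.1) and in 35 windows centred 300 bp to the left (31.5%), with 29.7% to the right. All nuclear pooled-list summits had 38.7%, with 32.8% to the left and 33.1% to the right, and the exact interval of the synaptic share contained all of these values. The replicate lists gave 28.6% and 30.2% at synaptic genes (29.4% ± 1.14, SD, n = 2), beside 37.7% and 38.7% of all summits. The exact interval was 20.9 to 37.3 in replicate 1, below the share of all summits, and 21.7 to 39.9 in replicate 2, which contained it. Among the matched sites 11 of 40 (27.5%, exact interval 14.6 to 43.9) held an E-box, beside 40.9% of all matched sites. Among the thresholded peaks 3 of 6 did (exact interval 11.8 to 88.2), beside 49.4% of all 1940. Among the 1940 strongest nuclear regions of replicate 1 alone it was 1 of 6, and of replicate 2 alone 3 of 7.

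**Figure D4:**
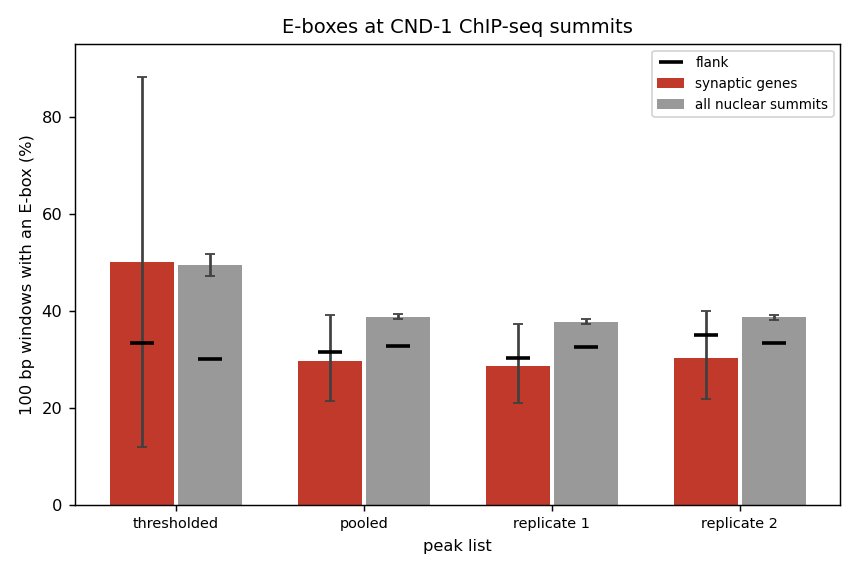
Share of 100 bp windows (%) with an E-box at summits of the 4 lists, for synaptic genes (red) and all nuclear summits (grey), with exact 95% intervals; black dashes give the window centred 300 bp to the left. In the pooled list the red bar (29.7%) lies below the grey one (38.7%) and close to its own flank (31.5%), with an interval of 21.4 to 39.1.

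The E-box CAGATG stood in the windows of 7 sites at 6 genes (6.31% of the 111, beside 6.86% of all pooled-list summits). Only the sites of unc-64 at rank 763 and of syd-2 at rank 7146 were matched, and the others, at unc-57, unc-2, cla-1 and tom-1, ranked 10497 or lower. Below the threshold, the 4 strongest matched sites with an E-box outside the first chromosome are shown to set their E-boxes, in capitals, beside those of unc-64 and dyn-1. They are aex-3 (chrX:760673-760772, upstream), syd-2 (chrX:10550382-10550481, exon), egl-19 (chrIV:7413634-7413733, intron) and unc-26 (chrIV:13261883-13261982, exon), all on the plus strand of the same assembly.
aex-3: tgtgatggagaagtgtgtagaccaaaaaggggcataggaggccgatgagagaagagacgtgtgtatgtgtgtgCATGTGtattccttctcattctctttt
syd-2: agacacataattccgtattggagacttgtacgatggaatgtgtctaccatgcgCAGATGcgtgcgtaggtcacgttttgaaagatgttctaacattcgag
egl-19: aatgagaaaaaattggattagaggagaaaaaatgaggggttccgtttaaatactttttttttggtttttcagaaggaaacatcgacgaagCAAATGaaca
unc-26: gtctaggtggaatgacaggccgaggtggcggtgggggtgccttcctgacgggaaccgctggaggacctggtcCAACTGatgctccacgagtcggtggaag
The 4 E-boxes differed, since aex-3 held CACATG (printed as its reverse complement), syd-2 the same CAGATG as unc-64, egl-19 the CAAATG also found at nsf-1, and unc-26 held CAACTG.

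The promoters themselves, taken as 250 bp before to 50 bp after the 5′ end of each gene, held an E-box in 14 of 31 synaptic genes (45.2%, 95% exact interval 27.3 to 64). Among all protein-coding genes it was 69.4%. CAGATG was present in 2 of them, unc-104 and unc-13, beside 14.2% of all promoters. The median GC content was 36% in synaptic promoters and 34.3% in all. With the 500 bp before the 5′ end the shares were 71% and 83.1%, and with 1000 bp they were 93.5% and 96.6%. The windows were chosen after the data were seen, and a matching motif is not evidence of a bound site.

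Genes related to the release machinery were counted in 8 further lists, with 181 distinct genes, of which 40 (22.1%) had a thresholded summit, beside 8.71% of all genes, at a median interval of 7.13 kb. The lists are broad and are not limited to genes that act at synapses, as with rab-5 and sec-22. These lists, too, were chosen with earlier results of these data known. Per length they held 3.22 summits per 100 kb, beside 1.5 at the 31 release genes and 2.13 over all genes. The highest share was in the list of G protein and second messenger control of release, with 12 of 34 genes. That list also holds other kinds of gene, such as the potassium channel genes slo-1 and shk-1. Not all of the 12 encode G protein or second messenger components. Its peaks included those of egl-30, the Gq alpha subunit (signal 302.62, in an exon, with 3 more in its interval), gsa-1, the Gs alpha subunit (signal 177.8), and eat-16, a regulator of G protein signalling (signal 144.78).

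In the list of axonal transport 9 of 27 genes (33.3%) had a thresholded summit, beside 8.71% of all genes. The list was led by klp-6, a kinesin (signal 334.45), unc-33, the CRMP homologue (signal 270.22, beside a tRNA gene), unc-116, the kinesin heavy chain (signal 233.11), and unc-14 (signal 157.21). Among organisers of synapse assembly it was 7 of 25 (28%), led by ppfr-1, a phosphatase regulatory subunit (signal 546.76), mig-10, an adaptor of actin outgrowth (signal 240.33), glo-4 (signal 180.41) and ptp-3, a receptor tyrosine phosphatase (signal 167.05). In the list of vesicle endocytosis and clathrin adaptors 6 of 20 genes (30%) had one. They included apb-1 (signal 163.78), the other adaptin genes apd-3 (signal 141.77) and apa-2 (signal 134.92), and the GTPase gene rab-5 (signal 150.4). In these lists, in the order given, the median intervals were 7.16, 8.62 and 6.63 kb, beside 3.53 kb for all genes. Thresholded summits came to 4.88, 4.6 and 3.75 per 100 kb, beside 2.13 over all genes.

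The remaining lists are read against the same 8.71% of all genes, and differences between lists were not tested. In the list of other synaptotagmins, SNAREs and fusion factors, 3 of 32 genes (9.38%) had a thresholded summit (vti-1, snt-3 and sec-22). That list also holds genes of other kinds, namely unc-79, unc-80, nca-2, nlf-1 and aex-5. Among dense core vesicle genes it was 2 of 17, or 11.8% (vps-51 and vps-50). Of 21 genes of transmitter synthesis and vesicular transport 1 had one (4.76%), cat-1, the vesicular monoamine transporter, at a site beside a tRNA gene (signal 454.66). None of the 5 genes in the list of other calcium entry and release channel genes had one, at a median interval of 23.3 kb.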

How the data were processed

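ChIP-seq of GFP-tagged CND-1 was analysed from the peak lists of 2 biological replicates; per the labels, chromatin was sonicated to 200 to 800 bp. The authors deposited narrowPeak lists on ce11: 1 per replicate, 1 from both replicates' reads and a thresholded one, each called with a control per the deposited file descriptions. The thresholded list was derived by a test of reproducibility between replicates (IDR), per the same descriptions. Caller, aligner and limits were not given in the sources used here. The deposited signal column has no stated scale and was used within lists. The deposited −log10 q-values were not used, since 1459 of 1964 thresholded peaks share the top value, 3.46.

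All regions ended within the WBcel235 chromosomes. Genes came from Ensembl 115, tRNA pseudogenes and sequence from RefSeq. Mitochondrial regions were left out. Summits were assigned to intervals with Python 3.11.15, numpy 2.4.6 and pandas 2.3.3, and 95% intervals were exact Clopper-Pearson or Poisson (scipy 1.17.1). No significance test was run between groups, and intervals cover counting error only. The counting was tested on simulated data.

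The genes given in full were those with a thresholded summit, then up to 8 by the best matched rank, then those without any summit; related lists name up to 4 genes by signal. 1 gene of those lists is not reported here. Of the related symbols 7 matched no gene. The members and lists were chosen with earlier results of these data known. Length classes, promoter windows, the B box and tRNA pseudogenes were added after the data were seen.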

Additional observations from a re-analysis of the deposited data

How the results depend on the processing

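Of 50 alternative settings for 6 results, 35 left a count within 1.5 times its value or the E-box share within 1 SD of the replicates (1.14 percentage points). The 6 genes with a thresholded summit were unaffected by 3000 bp upstream or by assigning each summit to the nearest start, and 5 remained with the strongest 970 peaks or without peaks near tRNA, snoRNA or snRNA genes. The replicates alone gave 6 and 7 genes, with unc-2 in place of dyn-1 in replicate 1 and unc-10 added in replicate 2. The gene body alone left 2 genes and 2 summits (unc-104 and unc-41), and 500 bp upstream to 250 bp downstream left another 2 genes and 2 summits (nsf-1 and syd-2). Thresholded summits with an E-box ranged from 1 to 3 between the replicates alone, and came to 2 in windows of 60 bp and 4 in windows of 200 bp. Among the strongest 5000 regions, 15 genes had a pooled-list summit, 14 had a matched site and the E-box share was 27.8%; among the strongest 10000 that share was 32.4%. Genes with a matched site fell to 15 with 1500 bp upstream to 500 bp downstream, and with 500 bp upstream to 250 bp downstream they fell to 8, and genes with a pooled-list summit to 13. The E-box share was 59.5% in windows of 200 bp and 21.6% in windows of 60 bp, and ran from 28.6% to 30.2% in the replicates alone. No paired analysis was possible because the 2 replicates form 1 group. The depth of the libraries is unknown from peak lists.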
